A study of Schizosaccharomyces pombe with 6 samples.

Results

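The abundant long non-coding RNAs of fission yeast are described here in wild-type and cpn1∆ cells. They were chosen by their level in wild-type cells, as the features named SPNCRNA whose mean over the 3 wild-type libraries was at least 10 CPM (counts of a feature per 1000000 counts of its library), with SPNCRNA.1343 left out. This rule took 177 of the 1535 SPNCRNA features and of the 7268 features counted in all. Levels in wild-type cells are therefore given as a description. The comparison of the genotypes uses the same wild-type libraries, so it is not independent of that choice.

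Cpn1 is the fission yeast Caprin, which is predicted to bind RNA, and the RNA-seq addressed whether its loss alters the transcriptome. Both genotypes were of mating type h+ with the alleles ade6-210, leu1-32 and ura4-D18 and with otr1R:ade6+, an ade6+ reporter in the outer repeats of a centromere, and cpn1∆ cells carried cpn1::HygMX6 in addition. Both were grown to log phase at 32 °C in the rich medium YES, and libraries were made from polyA-selected RNA, with 3 biological replicates per genotype. By the labels, all libraries of a genotype came from 1 strain, so other differences between the strains cannot be told apart from the deletion, and p-values measure the spread between these cultures.

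Fission yeast transcribes much of its genome outside protein-coding genes. Long non-coding RNAs are made by RNA polymerase II, often antisense to a coding gene or divergently from its promoter, and many are short-lived because the nuclear exosome and the cytoplasmic exonuclease degrade them. A few have a known role, among them the telomerase RNA ter1 and RNAs transcribed next to genes of sexual differentiation, where transcription of the non-coding RNA controls the neighbouring gene.

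Library totals were 26461217 to 32916622 counts, and ribosomal RNA took 0.921% to 1.42% of them. The deleted gene, cpn1, had 7543 to 9034 counts in the wild-type libraries and 169 to 194 counts in the cpn1∆ libraries. The scaling factors of the trimmed mean of M-values (TMM), which set libraries to a common scale, lay between 0.969 and 1.02. From here on CPM are scaled by these factors unless the selection rule is meant.

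Under the selection rule, wild-type levels ran from 10.1 to 201 CPM with a median of 16.5 CPM, and 104 of the 177 RNAs lay under 20 CPM. All 177 passed the filter on low counts, and the smallest count of any of them in any library was 210.5. Just inside the limit stood SPNCRNA.1038 with 10.1 CPM in wild-type against 11.6 CPM in cpn1∆ cells, SPNCRNA.1133 with 10.1 and 12.0 CPM, and SPNCRNA.1158 with 10.2 and 9.62 CPM. Just outside stood SPNCRNA.704 with 9.90 and 9.43 CPM, SPNCRNA.293 with 9.78 and 5.52 CPM, and SPNCRNA.1438 with 9.62 and 10.1 CPM. The same limit on the cpn1∆ mean would have taken 185 RNAs, of which 18 were not in the wild-type selection, while 10 of the wild-type selection would have been lost.

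The label of long non-coding RNA held for most of these features. The annotation had 169 of the 177, of which 166 were typed as lncRNA, 2 as snoRNA and 1 as ncRNA, and 168 were longer than 200 bases. The exception in length was SPNCRNA.120, with 118 bases. Annotated lengths had a median of 1643 bases and reached 5317 bases. Chromosome I carried 76 of the RNAs, chromosome II 63 and chromosome III 30.

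Most of the RNAs lay opposite to another counted feature. Of the 169 with an annotation, 133 overlapped a feature on the opposite strand, 100 of them over more than 50% of their length, and 36 overlapped none. The strand setting of the counting is not given in the sources used here, and the counts of covered features bear on it. Of 252 SPNCRNA features wholly covered by opposite-strand features, 164 were without a single count, and of 385 with no such cover, 43 were. Among protein-coding genes 270 of 379 wholly covered ones had no count, against 23 of 2422 uncovered ones. In all, 60 coding genes lay wholly inside one of the abundant RNAs on the other strand, and 55 of them had no count. They include the ribosomal protein gene rpl1801, the splicing factor gene srp2 and the histidine biosynthesis gene his5. Reads of an RNA and of the gene opposite to it therefore cannot be told apart. The level of an overlapped RNA may hold reads of its partner, or may lack reads of its own.

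The summed level of the abundant RNAs differed between the genotypes by less than the spread between replicates. It was 4689, 4671 and 4614 CPM in the wild-type libraries and 4656, 4765 and 4585 CPM in the cpn1∆ libraries. The sums overlapped between the genotypes, with means of 4658 ± 39.2 CPM and 4669 ± 90.7 CPM (SD, n = 3 each). These RNAs made up 0.447% to 0.485% of all counts of a library. In the plot of levels by rank, the cpn1∆ values scatter closely about the wild-type curve.

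**Figure D1:**
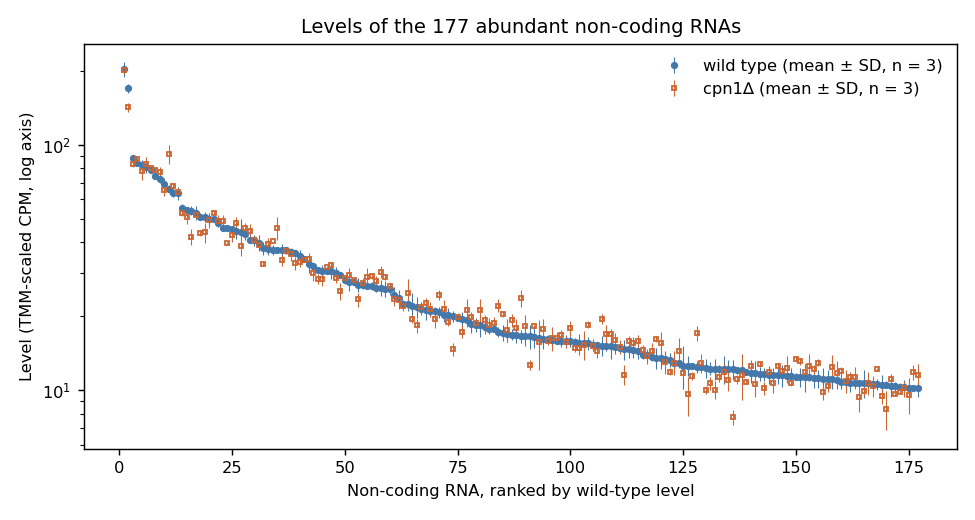
Mean level with SD (n = 3 libraries per genotype, TMM-scaled CPM on a log axis) of each of the 177 abundant non-coding RNAs, ranked by wild-type level, with wild type as filled circles and cpn1∆ as open squares. The genotypes follow the same curve, from about 200 CPM for SPNCRNA.1594 (203 and 201 CPM) to about 10 CPM, and SPNCRNA.608 and SPNCRNA.322 are visibly displaced among the 12 RNAs at the left.

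The abundant RNAs that changed in cpn1∆ cells did so by 1.15-fold to 1.57-fold. At a false discovery rate (FDR) under 0.05 in the quasi-likelihood test of edgeR, adjusted by Benjamini-Hochberg over all 5812 features tested, 12 RNAs were higher and 14 were lower in cpn1∆ cells. The called RNAs were 14.7% of the 177, beside 18.6% of all features tested. In each direction, 6.78% of the RNAs were called higher beside 8.36% of all features, and 7.91% were called lower beside 10.2%. The balance of directions turned with the selection, with 15 higher and 13 lower of 180 RNAs selected on the mean of all 6 libraries, 19 higher and 12 lower of 185 selected on the cpn1∆ mean, and 24 higher and 18 lower of 341 at 5 CPM or more in wild-type cells. The median log2FC was 0.02 over the RNAs and 0.01 over all features, and the median size of the log2FC without its sign was 0.10 and 0.08. The largest changes were a log2FC of -0.65 and one of 0.52. A single RNA passed 1.5-fold with the FDR threshold, in the lower direction, beside 0.74% of all features lower, 0.843% higher and 1.58% in either direction, and none passed the study's 2-fold threshold, beside 0.619% of all features; at an unadjusted p under 0.05 there were 49 of the 177, beside 1826 of the 5812.

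The size of change these libraries could show was small. The median standard error of the log2FC was 0.08. For 172 of the 177 RNAs the 95% interval of the difference lay within 1.5-fold in both directions. The intervals were taken with the normal distribution and are somewhat too narrow, so this count is approximate. In 117 RNAs the genotypes differed by less than 1.1-fold, and in 162 by less than 1.2-fold. The 3 libraries of one genotype lay apart from all 3 of the other for 27 RNAs in the higher and 26 in the lower direction, 29.9% of the RNAs beside 35.5% of all features. All 26 called RNAs were among these 53. The largest difference without a call was that of SPNCRNA.287, which went from 10.5 ± 0.362 to 8.42 ± 1.56 CPM (SD, n = 3; log2FC -0.32, edgeR FDR = 0.0807).

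**Figure D2:**
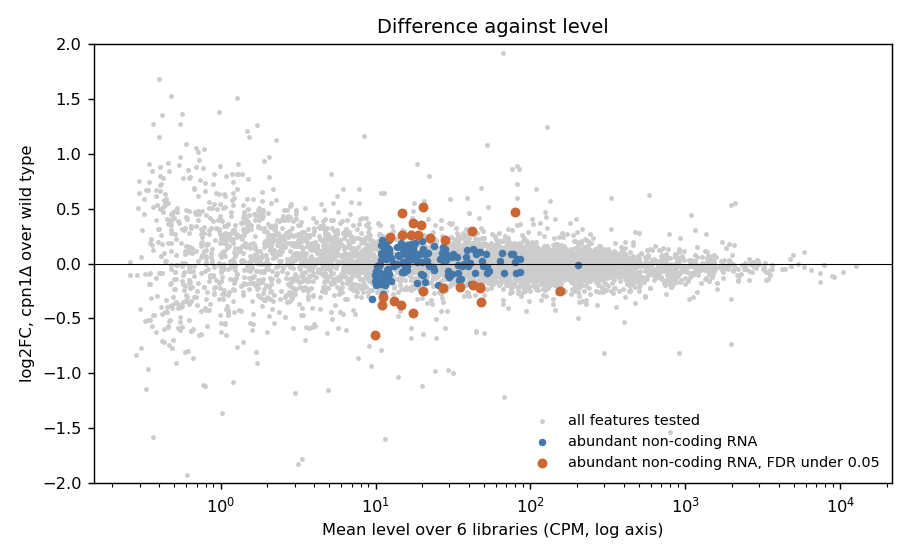
log2FC of cpn1∆ over wild type against the mean level over the 6 libraries (CPM, log axis) for all features tested (grey; 5 features beyond 2 on the log2 scale are not drawn), the abundant non-coding RNAs (blue) and those at an FDR under 0.05 (orange). The abundant RNAs lie between -0.65 and 0.52. Uncalled ones lie between -0.32 and 0.22 and overlap in size with called ones, such as SPNCRNA.787 at -0.20.

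The other SPNCRNA features and coding genes in the same range of wild-type CPM give the setting for these counts. Within that range the coding genes were not matched to the RNAs in level. Among 827 less abundant SPNCRNA features that could be tested, 36 were higher and 10 lower, 5.56% in all, with a median standard error of 0.20 on the log2 scale. Among 3229 protein-coding genes within the same range of wild-type CPM, 329 were higher and 302 lower, 19.5% in all, with a median standard error of 0.04. The abundant RNAs, at 0.08, were thus measured less precisely than these coding genes and more precisely than the rarer non-coding RNAs, and the shares called are not set on an equal footing. Leaving out the cpn1∆ replicate 1 library reduced the calls to 7 higher and 8 lower, and leaving out wild-type replicate 2 to 7 higher and 10 lower.

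**Figure D3:**
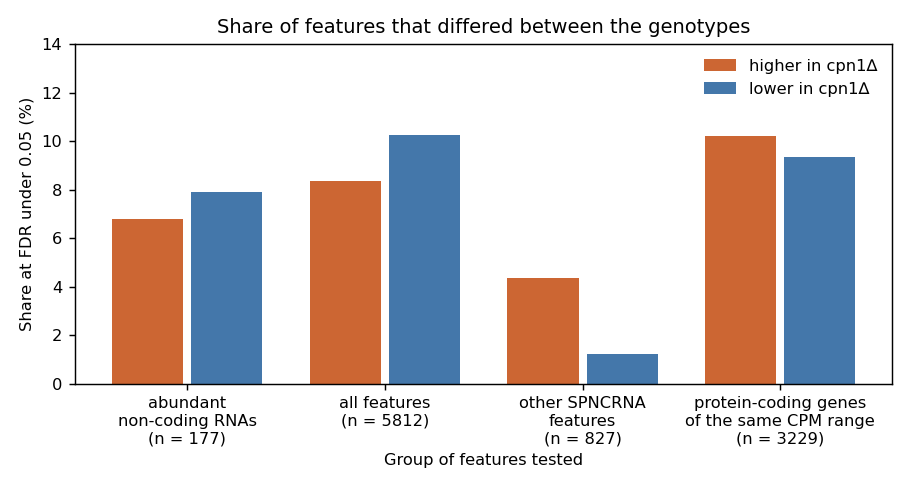
Share of features at an FDR under 0.05 (%), higher (orange) and lower (blue) in cpn1∆ cells, for the abundant non-coding RNAs and the groups beside them, with the number tested under each. The abundant RNAs stand at 6.78% and 7.91%, below all features tested at 8.36% and 10.2%, and no test was made between the groups.

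Among the RNAs with a name of their own, ter1 rose. It is SPNCRNA.214, the RNA subunit of telomerase, which carries the template for telomere repeats. The libraries were polyA-selected, so forms of ter1 without a poly(A) tail may be missed by these counts. Its level was 16.0, 16.0 and 13.5 CPM in wild-type libraries and 20.6, 19.1 and 19.0 CPM in cpn1∆ libraries. The cpn1∆ libraries all stood above the wild-type ones, with a log2FC of 0.37 (SE 0.08, edgeR quasi-likelihood FDR = 0.00571). No counted feature overlaps ter1 on either strand.

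The nam1 RNA fell. It is SPNCRNA.1459, transcribed upstream of byr2, the gene for the MAP kinase kinase kinase of the mating pathway. Its level was 16.0, 14.6 and 13.3 CPM in wild-type libraries and 11.9, 12.4 and 10.4 CPM in cpn1∆ libraries, with no overlap (log2FC -0.34, SE 0.10, edgeR FDR = 0.0236). The byr2 gene itself, 210 bases downstream, was at 33.4 ± 0.335 and 30.9 ± 2.97 CPM (SD, n = 3; log2FC -0.11, edgeR FDR = 0.265). The mlo3 gene, for an RNA-binding protein of mRNA export, overlaps 5.1% of nam1 on the same strand and was also lower (log2FC -0.15, FDR = 0.00749). The call for nam1 was lost without wild-type replicate 1 (FDR = 0.0952), wild-type replicate 2 (0.0623), cpn1∆ replicate 1 (0.0506) or cpn1∆ replicate 3 (0.0921).

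The rse1 RNA did not differ beyond its spread. It is SPNCRNA.111, which lies divergent to ste11, the gene of the transcription factor that starts sexual differentiation. Its level was 46.9, 48.4 and 49.1 CPM in wild-type libraries and 52.0, 47.0 and 47.9 CPM in cpn1∆ libraries. These ranges overlapped, and the log2FC was 0.02 with a 95% interval of -0.07 to 0.11 (edgeR FDR = 0.807). The ste11 gene, 1269 bases from rse1, was lower in cpn1∆ cells, at 16.3 ± 0.814 CPM against 20.5 ± 1.89 CPM in wild-type cells (SD, n = 3; log2FC -0.32, FDR = 0.0119).

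The other named RNAs passed no threshold. The polyadenylated RNAs without a long reading frame were prl32 (SPNCRNA.32), at 36.4 ± 1.03 and 35.7 ± 2.16 CPM, and prl58 (SPNCRNA.58), at 11.3 ± 1.04 and 13.1 ± 0.457 CPM (SD, n = 3). For prl58 the libraries did not overlap, with values of 10.5 to 12.5 CPM in wild-type and 12.6 to 13.4 CPM in cpn1∆ cells, and the edgeR FDR was 0.113. All of prl32 overlaps other features on its own strand, so its counts are uncertain. The features named after small nucleolar RNAs, snoR61 (SPNCRNA.445) and snoZ (SPNCRNA.659), had a log2FC of -0.07 and 0.06. For these too, forms without a poly(A) tail may be missed. The meiotic RNA meu16 (SPNCRNA.928) had a log2FC of -0.20 (FDR = 0.144), and 97.8% of it lies opposite to the meiotic gene mde6.

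Per kilobase of annotated length, the 10 RNAs of highest wild-type level were measured at 59.4 to 233 CPM per kilobase, beside a median of 12.1 over the 169 with a length. The first was SPNCRNA.1094, at 53.4, 55.3 and 53.3 CPM in wild-type and 48.7, 54.4 and 49.1 CPM in cpn1∆ cells, and the second its neighbour SPNCRNA.1095, which begins 29 bases away on the same strand. Neither was called, with a log2FC of -0.09 and -0.08 (edgeR FDR = 0.219 and 0.279), and SPNCRNA.1095 passed the threshold without cpn1∆ replicate 2 (FDR = 0.039). The third, SPNCRNA.1594, also had the highest level not divided by length, at 195, 195 and 218 CPM in wild-type and 207, 199 and 196 CPM in cpn1∆ cells. Its log2FC was -0.01 with a 95% interval of -0.10 to 0.07, and it covers on the other strand the whole of rpl1801, which was listed without a count. SPNCRNA.826, at 79.1 ± 2.48 and 79.9 ± 1.41 CPM (SD, n = 3), overlaps part of cpc2 on the other strand, the gene of the ribosomal RACK1 homologue, which was at 3228 CPM in wild-type cells. Of the other RNAs in this group, SPNCRNA.105, SPNCRNA.1322 and SPNCRNA.1578 had a log2FC of 0.16, 0.09 and -0.03 without a call, and prl32 is given above. Levels were divided by the whole annotated length, overlapped bases included. Bases free of other counted features were 453 of 1288 in SPNCRNA.1594, 151 of 764 in SPNCRNA.1322, 102 of 885 in SPNCRNA.1578 and 0 of 430 in prl32. All of SPNCRNA.1094 and SPNCRNA.1095 was free, but their deposited counts held fractions. How reads with several matches were handled is not given. The shortest of the 10 were SPNCRNA.1094, SPNCRNA.105 and SPNCRNA.120, at 232, 202 and 118 bases, and their levels were divided by these lengths. The order per kilobase thus depends on how reads in overlaps were counted, and may depend on short lengths and reads with several matches.

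SPNCRNA.608 and SPNCRNA.120 were the RNAs of highest level per kilobase that changed. SPNCRNA.608 was at 175, 172 and 161 CPM in wild-type and 138, 149 and 140 CPM in cpn1∆ libraries. It fell without overlap between the genotypes, by 0.25 on the log2 scale (SE 0.04, edgeR FDR = 0.000408). Opposite-strand features cover 63.9% of it, and the coding gene 136 bases downstream, SPAC11D3.04c, moved the other way (log2FC 0.23, FDR = 0.00043). SPNCRNA.120 was at 18.5, 16.0 and 16.8 CPM in wild-type and 20.7, 19.9 and 20.8 CPM in cpn1∆ libraries, a log2FC of 0.26 (FDR = 0.0199). Its call was lost without wild-type replicate 2, cpn1∆ replicate 1 or cpn1∆ replicate 3, with an FDR of up to 0.0879.

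The RNA that fell most was SPNCRNA.1039, the only one past 1.5-fold. It was at 12.2, 11.0 and 13.2 CPM in wild-type and 7.93, 8.20 and 7.17 CPM in cpn1∆ libraries. Every cpn1∆ library lay below the lowest wild-type one, with a log2FC of -0.65 (SE 0.10, edgeR FDR = 0.000631). No counted feature lies opposite to it, while 38.5% of it overlaps a feature on its own strand. Its divergent neighbour vht1, the gene of the plasma membrane biotin transporter, begins 885 bases away and was at 2274, 2395 and 2743 CPM in wild-type and 1589, 1600 and 1264 CPM in cpn1∆ libraries. That gene fell too, by 0.74 on the log2 scale (SE 0.08, FDR = 2.65e-05). On the other side, clr2, for a subunit of the SHREC histone deacetylase complex, lies 1418 bases downstream and had a log2FC of -0.20 (FDR = 0.00301).

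The RNAs described from here to the divergent genes were called at the FDR threshold and, other than those already given, were named after their values were seen. SPNCRNA.1156 was at 18.9, 20.9 and 20.3 CPM in wild-type and 14.6, 15.6 and 13.8 CPM in cpn1∆ libraries. Its libraries did not overlap (log2FC -0.45, SE 0.07, edgeR FDR = 0.000888), and no counted feature lies opposite to it. SPNCRNA.712, at 18.6, 16.2 and 14.9 CPM against 12.1, 12.6 and 13.4 CPM, had a log2FC of -0.37 (FDR = 0.011). Its value cannot be separated from that of cwf19, a gene of a splicing factor, which lies wholly inside it on the other strand and had only 44 counts over the 6 libraries.

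SPNCRNA.779 and SPNCRNA.781 lie 8 bases apart on the same strand and both fell. The first was at 49.4, 50.6 and 52.6 CPM in wild-type and 45.3, 43.0 and 42.9 CPM in cpn1∆ libraries (log2FC -0.22, SE 0.04, edgeR FDR = 0.0032). The second was at 53.1, 56.3 and 52.0 CPM and at 45.6, 42.0 and 38.9 CPM (log2FC -0.35, SE 0.06, FDR = 0.000597). In both the genotypes stood apart. The coding gene upstream of the pair, pcs2, for a subunit of the monopolin complex at kinetochores, was lower by a small amount (log2FC -0.13, FDR = 0.0144), and the one downstream, hsr1, had a log2FC of -0.04 (FDR = 0.501). Of the 12 pairs of abundant RNAs within 2000 bases of each other, this was the only one in which both were called.

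SPNCRNA.787 varied least between libraries among the called RNAs, at 45.4, 45.7 and 45.7 CPM in wild-type and 39.9, 39.5 and 39.9 CPM in cpn1∆ cells. It fell by 0.20 on the log2 scale (SE 0.04, edgeR FDR = 0.00426), and 81.4% of it lies opposite to ebp2, a gene of ribosome biogenesis with a log2FC of -0.06 (FDR = 0.232). Of the remaining lower RNAs, SPNCRNA.1442 went from 38.0 ± 2.35 to 32.7 ± 0.625 CPM (SD, n = 3; log2FC -0.22, FDR = 0.0129). Its call was lost without cpn1∆ replicate 2 (FDR = 0.0519). SPNCRNA.1261, SPNCRNA.99, SPNCRNA.979, SPNCRNA.1316 and SPNCRNA.1602 had a log2FC of -0.38, -0.31, -0.25, -0.22 and -0.21 with an FDR between 0.0272 and 0.0433, and each lost its call without several single libraries, cpn1∆ replicate 1 among them in each case (FDR up to 0.194). These RNAs also lost their call when scaled by total counts only (edgeR FDR 0.0505 to 0.0848), and SPNCRNA.979 with upper-quartile scaling too (0.0537). SPNCRNA.979 overlaps a short stretch of gpd2, the gene of a glycerol-3-phosphate dehydrogenase, on the other strand, and that gene was lower as well (log2FC -0.17, FDR = 0.00149).

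The RNA that rose most was SPNCRNA.1153, at 17.6, 15.6 and 16.6 CPM in wild-type and 23.4, 25.7 and 21.9 CPM in cpn1∆ libraries. The genotypes did not overlap (log2FC 0.52, SE 0.08, edgeR FDR = 0.000382), and 80.6% of it lies opposite to another counted feature. It stands between bfr1, for a drug efflux transporter, and wee1, for the kinase that delays mitosis, of which bfr1 was higher (log2FC 0.20, FDR = 0.000251) and wee1 had a log2FC of 0.05 (FDR = 0.298).

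SPNCRNA.322 was the most abundant RNA that rose, at 67.0, 67.9 and 63.2 CPM in wild-type and 95.1, 97.1 and 82.1 CPM in cpn1∆ libraries. All cpn1∆ values lay above the wild-type range, with a log2FC of 0.47 (SE 0.06, edgeR FDR = 5.25e-05), and no counted feature overlaps it on either strand. Its divergent neighbour pfl3, the gene of a flocculin that mediates cell adhesion, moved the other way, from 236, 244 and 230 CPM to 165, 174 and 164 CPM (log2FC -0.50, SE 0.03, FDR = 2.12e-07). The downstream gene apl2, for an adaptor subunit of vesicle coats, was at 41.9 CPM in both genotypes (FDR = 0.984).

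SPNCRNA.925 was at 13.0, 12.5 and 11.7 CPM in wild-type and 16.3, 18.5 and 16.3 CPM in cpn1∆ libraries, a rise without overlap (log2FC 0.46, SE 0.08, edgeR FDR = 0.00155). Opposite to 81.5% of it lies a coding gene without a count, SPAC8C9.04. The gene downstream of it, cgs1, for the regulatory subunit of protein kinase A, was at 13.2 and 16.3 CPM (log2FC 0.30, FDR = 0.0516). SPNCRNA.698 rose from 17.3, 16.5 and 18.0 CPM to 23.7, 21.2 and 21.5 CPM (log2FC 0.35, SE 0.07, FDR = 0.00325). It overlaps a short stretch of puf3, for a Pumilio-family RNA-binding protein, on the same strand, and that gene was higher too (log2FC 0.15, FDR = 0.0188).

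SPNCRNA.680 was at 37.1, 36.7 and 38.2 CPM in wild-type and 46.5, 50.6 and 40.4 CPM in cpn1∆ libraries, and the lowest cpn1∆ value still stood above the wild-type range (log2FC 0.29, SE 0.07, edgeR FDR = 0.00818). The remaining higher RNAs, SPNCRNA.771, SPNCRNA.1473, SPNCRNA.1542, SPNCRNA.1476 and SPNCRNA.1030, had a log2FC of 0.26, 0.26, 0.25, 0.24 and 0.22 with an FDR between 0.022 and 0.0457. Each lost its call without 3 or more of the 6 single libraries (FDR up to 0.143). SPNCRNA.771 covers arb1 on the other strand, the gene of an Argonaute-binding protein of RNA interference, which was listed without a count.

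**Figure D4:**
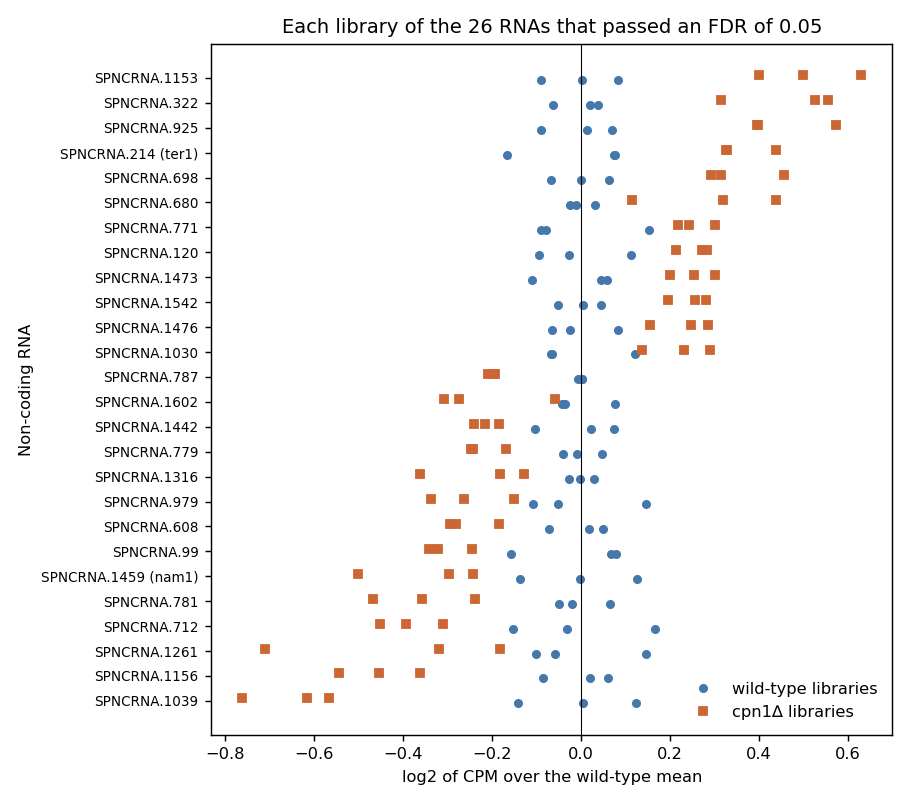
Level of each of the 26 called non-coding RNAs in each library, as log2 of its CPM over the wild-type mean, with wild-type libraries as circles and cpn1∆ libraries as squares, ordered from the largest rise to the largest fall. In every row the squares lie apart from the circles, by the least in SPNCRNA.1602 and SPNCRNA.1030, and the fold differences run from 1.15 to 1.57.

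Calls by kind of abundant RNA stand beside 8.36% of all features called higher, 10.2% called lower and 18.6% in all. By wild-type level under the selection rule, 8 RNAs were higher and 6 lower among 104 at 10 to 20 CPM, 3 and 3 among 43 at 20 to 40 CPM, and 1 and 5 among 30 at 40 CPM or more. By chromosome, 6 were higher and 7 lower of 76 on chromosome I (17.1% called), 4 and 4 of 63 on chromosome II (12.7%), and 2 and 2 of 30 on chromosome III (13.3%). Among the 36 RNAs with no opposite-strand overlap, 5 were higher and 4 lower, and among the 133 with such overlap 7 were higher and 9 lower, which is 25% and 12.0% called. No difference between these shares was tested. Where the deposited counts held fractions, in 57 of the RNAs, 3 were higher and 4 lower (12.3% called).

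Of the 169 RNAs with an annotation, 122 had as nearest coding gene upstream one on the opposite strand. It is here called the divergent gene and lay at a median distance of 432 bases. Both partners could be tested in 120 pairs. Across these pairs the log2FC of RNA and gene had a Pearson r of 0.17 and a Spearman coefficient of 0.07, as a description over pairs that share the 6 libraries and in part the same genes. Of 16 called RNAs with a divergent gene, that gene was called for 6, and in 5 of these both moved in the same direction. Over all the pairs, 33 of the 116 divergent genes tested were called, beside 18.6% of all features and 21.0% of protein-coding genes tested. For the nearest coding gene downstream, 25 pairs held a called RNA. Both were called in 8 of these, with 3 of the 8 in the same direction. Over all the downstream pairs, 36 of the 154 genes tested were called. For an upstream gene on the same strand, both were called in 2 of 7 such pairs, each in the same direction. Over all pairs of this kind, 8 of the 41 genes tested were called. The 6 divergent pairs with both called included SPNCRNA.1039 with vht1, SPNCRNA.1153 with bfr1, SPNCRNA.1473 with sul1 and SPNCRNA.680 with puf5. The divergent pair in opposite directions was SPNCRNA.322 with pfl3.

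The genes sul1 and puf5 both rose. The sulfate transporter gene sul1 lies 383 bases from SPNCRNA.1473 and went from 114 ± 4.67 to 142 ± 10.2 CPM (SD, n = 3; log2FC 0.32, edgeR FDR = 0.000279). The Pumilio-family gene puf5 lies 3553 bases from SPNCRNA.680 and went from 40.3, 42.9 and 37.5 CPM to 46.3, 48.8 and 46.3 CPM (log2FC 0.23, FDR = 0.00814). For coding genes that overlap an abundant RNA on the other strand, 105 pairs could be tested, with a Pearson r of 0.06 and a Spearman coefficient of 0.15. Of the 104 genes in these pairs, 19 were called, beside 18.6% of all features and 21.0% of protein-coding genes tested. Both partners were called in 3 of the 9 pairs with a called RNA, each time in the same direction. Reads of such overlapping partners cannot be told apart, so their directions may not be independent.

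**Figure D5:**
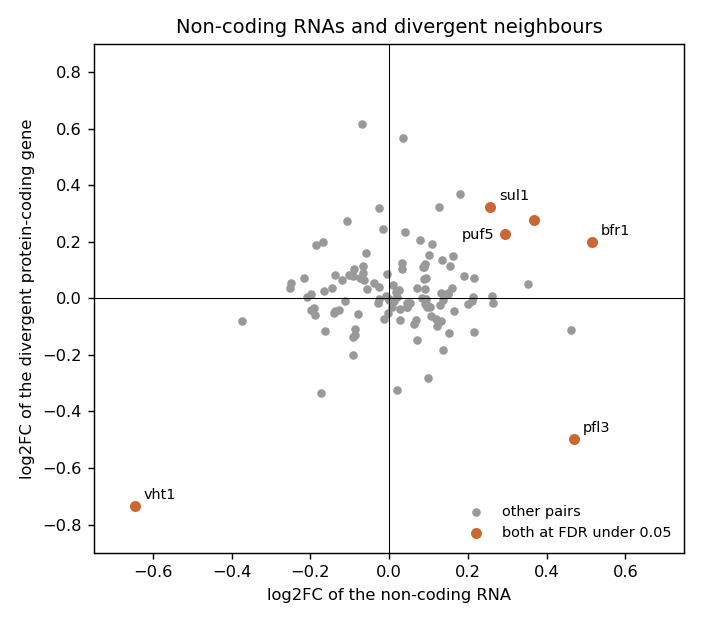
log2FC of the divergent protein-coding gene against log2FC of the abundant non-coding RNA for the 120 pairs tested, with the 6 pairs in which both passed an FDR of 0.05 in orange and 5 of them labelled by the gene. Most points lie near 0 on both axes, 5 of the orange pairs lie in the quadrants of equal direction, and pfl3 lies in that of opposite direction.

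The genes that act on such RNAs were examined as lists. Their counts stand beside 10.2% of all features called lower and 8.36% called higher. Among protein-coding genes tested these shares were 11.9% and 9.12%. The exosome, decay, termination and antisense lists each had a median standard error of 0.03, beside 0.05 over all features. Shares of these lists and of all features are therefore not on an equal footing. Of 23 genes of the nuclear exosome and its cofactors, which degrade non-coding RNAs in the nucleus, 7 were lower (30.4%) and 1 was higher (4.35%) in cpn1∆ cells, with a median log2FC of -0.02 beside 0.01 over all features. The lower ones included the exosome nucleases dis3 and rrp6 (log2FC -0.25 for both, edgeR FDR = 3.23e-05 and 5.36e-05) and the helicase mtr4 (log2FC -0.26, FDR = 1.04e-05), while the poly(A)-binding protein gene pab2 was higher (log2FC 0.11, FDR = 0.0202). Of 19 genes of decay from the other end, decapping and deadenylation, 4 were lower (21.1%) and 2 higher (10.5%), with a median log2FC of 0.002. The lower ones were led by the exonuclease genes exo2 (log2FC -0.35, edgeR FDR = 1.11e-06) and dhp1 (log2FC -0.34, FDR = 2.28e-06). The higher ones were lsm1 (log2FC 0.10, FDR = 0.0317) and rcd1 (log2FC 0.13, FDR = 0.0118). Each of these changes was under 1.5-fold.

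Of the 16 genes of 3′ end processing and termination that were tested, 2 were lower (12.5%) and 1 was higher (6.25%), the latter being cft2 at 3.84 ± 0.305 and 5.38 ± 0.640 CPM (SD, n = 3; log2FC 0.49, edgeR FDR = 0.0257). Of 16 tested genes that restrain antisense and cryptic transcription, 4 were lower (25%) and none was higher at this threshold, among them the histone chaperone gene spt6 (log2FC -0.19, FDR = 0.000433) and the chromatin remodeller gene hrp1 (log2FC -0.26, FDR = 0.000187). A list of non-coding RNAs known by name, which did not hold nam1, had 5 tested members (ter1, mrp1, rrk1, omt3 and prl22), of which ter1 was called. Of 12 stress response genes, 5 were higher (41.7%) and none was lower, with hsp16 (log2FC 1.92, FDR = 7.7e-08) and hsp104 (log2FC 0.86, FDR = 1.24e-07) first. The part of any of these genes in the levels of the abundant RNAs was not tested.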

How the data were processed

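Total RNA of 6 cultures was polyA-selected and sequenced. According to the methods of the study and the processing notes of the submitters, adapters were removed with Cutadapt 4.8, reads were aligned to ASM294v2 with STAR 2.7.10b and counted with featureCounts, and the authors tested the counts with edgeR 3.42.4. The authors deposited expected counts, 1 column per library and not normalized, in which 760 features hold fractional values. The sources used here do not give the strand setting or how reads with several matches were handled. A row that names no gene was left out of totals and tests. Names, lengths, strands, neighbours and overlaps come from RefSeq's annotation of ASM294v3, matched for 6846 of 7268 identifiers. That build is not the one counted on, so no coordinates or sequences are given.

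Counts were rounded and tested with edgeR 4.0.16 in R 4.3.3 (TMM, filterByExpr with a minimum count of 10, glmQLFit with legacy set to FALSE, glmQLFTest, genotype as the only term), with Benjamini-Hochberg adjustment over 5812 features and an FDR under 0.05 as the threshold. The design had assumed whole counts. A standard error is the size of the log2FC over the root of its F statistic. The fit was tested on simulated counts, and Python 3.11.15 with pandas 2.3.3 joined the tables. RNAs named were the 10 of highest wild-type level per kilobase, those called past 1.5-fold, those with a name, and those next to the limit of 10 CPM. The other called RNAs were added after their values were seen, and from each list at most 6 called genes were named. Members and lists were chosen with earlier results of these data known. The alternatives were other scalings, filters, tests (DESeq2 1.42.0, limma 3.58.1 with voom, edgeR's exact test), thresholds, selections and single libraries left out. The values of 1 of the divergent genes are not reported here. An alternative with unrounded counts was added after the data were seen.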

Additional observations from a re-analysis of the deposited data

How the results depend on the processing

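With the 1.5-fold threshold the 12 higher and 14 lower RNAs became 0 and 1, and the 1081 features called in all became 92. With the 2-fold threshold they became 0, 0 and 36. Other selections gave 19 higher and 12 lower RNAs by the cpn1∆ mean (of 185), 24 higher and 18 lower at 5 CPM or more (of 341), 4 higher and 8 lower at 20 CPM or more (of 73), and 5 higher and 4 lower among the 36 without opposite-strand overlap. Scaling by total counts only gave 9 lower RNAs. Leaving out 1 library gave 7 to 10 higher RNAs, 8 to 14 lower RNAs and 750 to 1020 features in all, with fewer samples in each of these fits. DESeq2 called 25 of the 177 RNAs, all among the 26. Of the 26 called RNAs, 13 kept their call under every alternative fit and without any single library: ter1, SPNCRNA.322, SPNCRNA.608, SPNCRNA.680, SPNCRNA.698, SPNCRNA.712, SPNCRNA.779, SPNCRNA.781, SPNCRNA.787, SPNCRNA.925, SPNCRNA.1039, SPNCRNA.1153 and SPNCRNA.1156. No called RNA changed its direction in these fits. No pairing by replicate number was seen, as same-numbered libraries correlated at -0.05, 0.05 and 0.09 in their deviations from the genotype means. With 3 libraries per genotype these values cannot exclude a pairing. With the replicate block, 13 RNAs were higher, 15 were lower and 1226 features were called in all, and the 26 RNAs were among the 28. Depth limits the RNAs near 10 CPM, with a median standard error of 0.09 on the log2 scale at 10 to 20 CPM and 0.05 at 40 CPM or more.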
